A study of Mus musculus with 6 samples.

Results

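The H/ACA box small nucleolar RNAs and their Cajal body relatives were examined as sources of short fragments in cultured mouse spermatogonial stem cells. The members were all annotated genes of biotype snoRNA or scaRNA whose symbol starts with Snora or Scarna, which gave 51 genes (42 Snora and 9 Scarna) of 6108 annotated small RNA genes. Reads of 18 to 35 nt were counted for a member when they matched its sequence exactly and in sense. Of the 51 genes, 50 had at least 1 read, 41 had a read in every library, and Snora35, which lies in an intron of the serotonin receptor gene Htr2c, had none.

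An H/ACA RNA folds into hairpins that hold pockets complementary to a target RNA, and the dyskerin enzyme bound to it turns the target uridine into pseudouridine. The hairpins are followed by a hinge (the H box) and by an ACA triplet close to the 3′ end. Most Snora RNAs act on ribosomal RNA in the nucleolus, and the Scarna RNAs, some of which are of the C/D box kind or a mix of both kinds, act on spliceosomal RNAs in the Cajal body. In mammals most of these RNAs are cut out of introns of host genes, and pieces of them are found in small RNA libraries, a few of them annotated as microRNAs.

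There were 6 groups with 1 library each. The cells came from a 15-day-old F1 male of C57BL/6 and DBA2 parents with an actin-EGFP transgene (the strain label reads C57BL/6) and were grown on embryonic fibroblast feeder cells. The groups were wild type RNA oxidised with NaIO4 (200 mM stock, 1 h on ice), mhen1-/- RNA oxidised in the same way, untreated mhen1-/- RNA, untreated mili-/- RNA, RNA immunoprecipitated from wild type cells with an anti-MILI antibody, and untreated wild type RNA. Both knockouts were made with Cas9 and guide RNAs, and their lines were grown from single picked colonies, so a line's own traits and its genotype cannot be told apart. NaIO4 oxidises the last ribose of an RNA where it carries free hydroxyl groups, and such an RNA is then not joined to the 3′ adapter and stays out of the library. A terminal 2′-O-methyl group, which the HEN1 methyltransferase adds to piRNAs, prevents this, and MILI is a PIWI protein that binds piRNAs. With 1 library per group no test between conditions was possible. Every ratio below compares 2 libraries, its 95% interval covers counting error only, and each of the 5 comparisons shares a library with another one.

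The libraries held 10282416 reads of 18 to 35 nt in oxidised wild type RNA, 2604390 in oxidised Hen1 knockout RNA, 11702714 in the Hen1 knockout, 4808088 in the Mili knockout, 25240941 in the MILI immunoprecipitate and 7322408 in untreated wild type RNA. Feeder-cell microRNAs made up 0.649 to 1.99% of microRNA reads and germ cell microRNAs 23.6 to 50.4%, and every listed marker was detected in every library. Short reads of the Henmt1 transcript (the gene of HEN1) numbered 16, 8, 88, 0, 121 and 21 in the order of the libraries above, and those of Piwil2 (the gene of MILI) 865, 68, 677, 2, 2610 and 289. The edited positions are not given in the labels, so these reads do not check the genotypes. In bulk RNA, fewer cells of a type and less RNA per cell cannot be told apart.

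The name of the set was checked against the sequences. The triplet ACA lay 1 to 5 bases before the annotated 3′ end in 44 of the 51 genes (86.3%), against 18.3% of the other 6057 small RNA genes and 5.10% of 98 Snord (C/D box) genes. The 7 genes without it were Scarna10, Scarna17, Scarna2, Scarna6, Scarna9, Snora44 and Snora81. Of these, Scarna10, Scarna17, Scarna6 and Scarna9 held TGATGA, the usual C box letters, within their first 15 bases. These 7 genes therefore did not carry the H/ACA mark at their annotated ends, and they contributed 23.9% of member reads in untreated wild type RNA. The ratios of the main sets are also given without them.

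The fragments that carried the findings are shown first, with the member sequence in lower case, 5′ to 3′, and the most abundant read of the gene, taken from the read files and placed on GENCODE M21 transcripts of GRCm38, in capitals. Snora31 lies in Tpt1, and its main fragment is the 5′ end at chr14:75847905-75847935 on the plus strand.
Snora31: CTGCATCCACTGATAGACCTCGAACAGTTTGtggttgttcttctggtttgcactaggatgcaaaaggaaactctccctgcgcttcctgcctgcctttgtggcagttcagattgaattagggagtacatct
Snora65 in Rpl12 and Snora61 in Snhg12 gave mainly 3′ ends, at chr2:32963400-32963420 and chr4:132310347-132310369, both on the plus strand, with the ACA triplet inside the read.
Snora65: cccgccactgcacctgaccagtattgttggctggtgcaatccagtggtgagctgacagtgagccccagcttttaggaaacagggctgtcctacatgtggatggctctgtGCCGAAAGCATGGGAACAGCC
Snora61: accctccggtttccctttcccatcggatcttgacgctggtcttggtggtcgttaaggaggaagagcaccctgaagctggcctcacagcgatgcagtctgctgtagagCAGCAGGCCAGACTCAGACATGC
Scarna9 in Cep295 is a short gene with C box letters and no ACA triplet, and its main read is the 5′ end at chr9:15326303-15326333 on the minus strand.
Scarna9: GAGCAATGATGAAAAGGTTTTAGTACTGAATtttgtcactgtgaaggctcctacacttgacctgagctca

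Member fragments were a small share of each library, and a few genes gave most of them. There were 2823 member reads in oxidised wild type RNA, 1434 in oxidised Hen1 knockout RNA, 4803 in the Hen1 knockout, 6356 in the Mili knockout, 409 in the MILI immunoprecipitate and 5550 in untreated wild type RNA. In RPM (reads per 1000000 reads of 18 to 35 nt) these were 274.5, 550.6, 410.4, 1322, 16.2 and 757.9 in the same order. The level was highest in the Mili knockout and by far the lowest in the immunoprecipitate. In untreated wild type RNA 5 genes were enough to hold 50% of the member reads, and the 12 genes with the highest mean level held 70.7%. These 12 were Snora62, Snora31, Scarna17, Snora65, Scarna9, Scarna10, Snora68, Snora75, Snora24, the pair of overlapping Snora16a genes (which share their reads, split equally between them) and Scarna6.

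**Figure D1:**
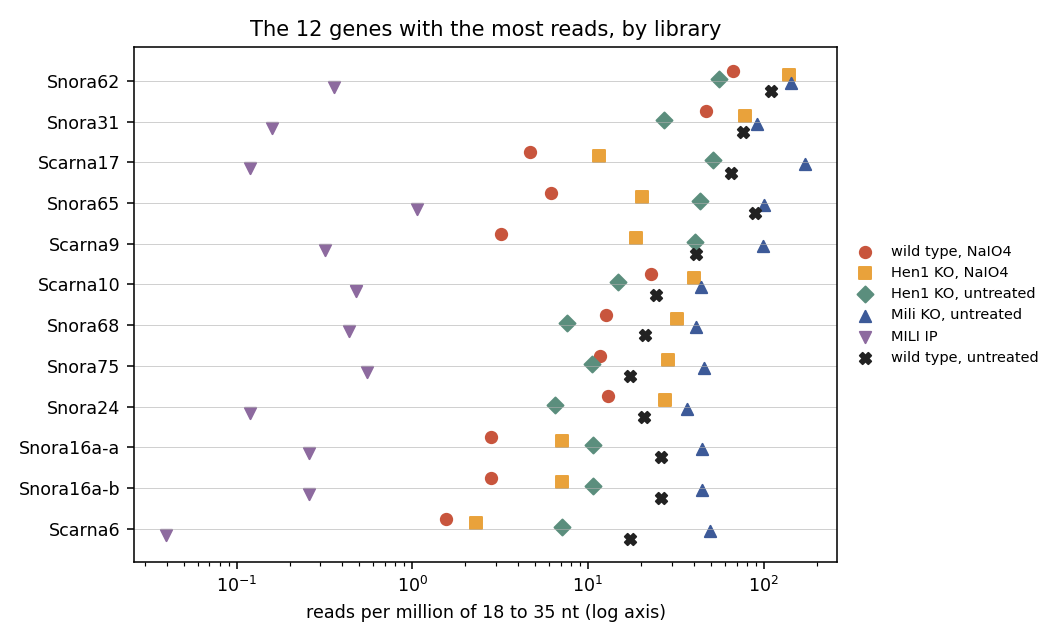
Level of the 12 genes with the most reads (rows) in RPM on a log axis, with 1 symbol per library. Snora62 stood highest or close to it in every untreated or oxidised total RNA library, and the immunoprecipitate lay far to the left for every gene shown.

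Snora62, which in humans directs pseudouridylation of large-subunit ribosomal RNA, was the leading gene in wild type and Hen1 knockout libraries among exact matches of 18 to 35 nt. A 36-nt fragment of Snora44, just beyond that limit, had more reads, with 3127 in untreated wild type RNA, and so did Scarna6 reads with a T past the annotated end, with 982 against 810 of Snora62. The level of Snora62 was 66.6 RPM in oxidised wild type RNA, 139 RPM in oxidised Hen1 knockout RNA, 55.6 RPM in the Hen1 knockout, 142 RPM in the Mili knockout, 0.357 RPM in the immunoprecipitate and 111 RPM in untreated wild type RNA. Snora31 had a sharp fragment of 31 nt, bases 1 to 31, with 396, 180, 266, 322, 0 and 455 reads in the same order of libraries. Reads of both genes remained abundant after NaIO4 and were close to absent from the immunoprecipitate.

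Reads came from the gene ends. A read was placed at the 5′ end when it started within 5 nt of the first base, at the 3′ end when it otherwise finished within 5 nt of the last base, and internally in all other cases. In untreated wild type RNA 44.0% of member reads were at the 5′ end, 16.3% internal and 39.7% at the 3′ end. The untreated Hen1 knockout had 45.9, 18.7 and 35.4%, and the Mili knockout 40.6, 18.1 and 41.3%. The outer ends were precise: 98.2% of 5′-end reads of untreated wild type RNA started at base 1 or 2, and 75.6% of 3′-end reads finished exactly at the annotated last base. In that library 66.5% of 3′-end reads ended in ACANNN, against 1.17% of all its reads of 18 to 35 nt. In 37 of the 51 genes ACA stands exactly 3 bases before the annotated end. Reads of these genes that finish at the last base end in ACANNN by definition, so the 2 shares are not independent.

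**Figure D2:**
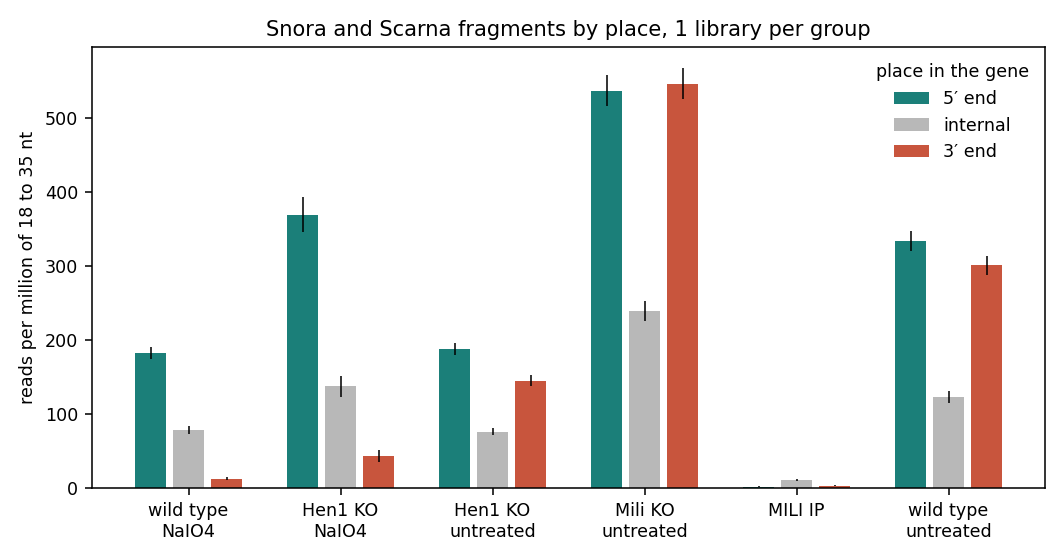
Member reads in RPM by place in the gene, with 1 group of bars per library and error bars of the 95% counting error. Oxidised wild type RNA had 12.8 RPM of 3′-end reads, against 301 RPM in untreated wild type RNA, while 5′-end reads stood at 183 and 334 RPM.

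The inner ends were sharp in some genes and spread in others. Of the 5′-end reads of Snora31 in untreated wild type RNA, 94.0% stopped at base 31. Scarna10, a long mixed RNA known in humans as a guide for spliceosomal RNA, stopped at base 35 in 98.5%, which is the last base that a read from base 1 can reach within the limit of 35 nt. Snora68 and Snora24 were less exact, with 30.8% of 5′-end reads stopping at base 20 and 20.0% at base 25. At the 3′ ends, 98.1% of Scarna6 reads started at base 235, whereas the most common start held 39.3% of Snora65 reads (base 110) and 24.1% of Snora20 reads (base 104).

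In wild type RNA the share of 3′-end reads was far lower after oxidation, and those of the other reads less so. The 3′-end reads were 23.4-fold lower in oxidised than in untreated wild type RNA (95% interval 19.7 to 27.9), the internal reads 1.57-fold lower (1.42 to 1.72) and the 5′-end reads 1.83-fold lower (1.72 to 1.94). Over all member reads the share was 0.362 of the untreated share (0.346 to 0.379). Per microRNA read, 3′-end reads were at 0.556 of the untreated value, whereas 5′-end and internal reads were at 7.14 and 8.33 times theirs, so the size and, away from the 3′ end, the direction depended on the scaling. There were 0.0702 3′-end reads for each 5′-end read in oxidised wild type RNA, against 0.902 in untreated wild type RNA, a 12.8-fold difference (10.7 to 15.5). This within-library measure does not depend on the scaling of the libraries. It was 13.6-fold (11.1 to 16.7) in the 44 genes with the ACA triplet and 12.4-fold (10.2 to 14.9) without Snora62. Of the 3′-end reads that were left in oxidised RNA, 26.5% finished exactly at the annotated end and 18.9% ended in ACANNN. Both shares are smaller than in untreated RNA, and as said above they are not independent.

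A lower share of 3′-end reads was common to small RNA genes at large. By the rule of a 2-fold difference among genes with at least 20 such reads in the 2 libraries together, 22 of 22 members were lower at the 3′ end in oxidised wild type RNA and 0 were higher. The same rule called 90.9% of all small RNA genes lower and 1.93% higher, and the median ratio was 0.0373 for members and 0.0624 for all. At the 5′ end 8 of 21 members were lower, against 38.3% of all small RNA genes, and 0 were higher, against 1.06%. Of 31 members with enough internal reads 9 were lower, against 38.5%, and 2 higher, against 8.88%. Snord genes had an 11.0-fold (10.3 to 11.7) lower number of 3′-end reads per 5′-end read in oxidised wild type RNA and spliceosomal snRNA genes a 31.7-fold (28.2 to 35.7) lower one.

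Abundant single genes mostly followed the place of their reads, with exceptions among both Scarna and Snora genes. Snora65 gave 23 reads at the 3′ end in oxidised wild type RNA and 39 in oxidised Hen1 knockout RNA, against 495 in the Hen1 knockout, 432 in the Mili knockout, 25 in the immunoprecipitate and 636 in untreated wild type RNA. The wild type difference was 38.8-fold (25.6 to 58.9). Snora61 had 0 reads at the 3′ end in oxidised wild type RNA, against 69 in untreated wild type RNA, which is at least 32.3-fold lower when 3 counts are taken as the floor. The 3′-end reads of Scarna17 numbered 5 in oxidised wild type RNA, against 308 in untreated wild type RNA. Scarna9 was lowered as well, although 96.7% of its untreated wild type reads were 5′-end reads, with 33 such reads in oxidised and 290 in untreated wild type RNA (12.3-fold lower, 8.61 to 17.7). The 5′-end reads of Scarna17 were 5.82-fold lower (4.14 to 8.19). Among Snora genes, the internal reads of the overlapping Snora16a pair, which share their reads, had a ratio of 0.263 in wild type. Those of Snora36b had a ratio of 0.126, and 42 of all 43 untreated wild type reads of this gene also matched the microRNA gene Mir664.

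The 5′-end reads of the 7 genes without the ACA triplet were lowered more by NaIO4 than those of the other members. In wild type RNA they were 3.42-fold lower (2.97 to 3.94) in oxidised RNA, against 1.55-fold (1.45 to 1.66) in the 44 genes with the triplet. Within the 7 genes the response was mixed. Scarna9 and Scarna17, which were strongly lowered, gave 290 and 170 of the 670 untreated 5′-end reads of this set. Scarna genes with the triplet were mixed as well. Scarna13 had 3 such reads in oxidised and 27 in untreated wild type RNA (12.6-fold lower, 3.83 to 41.7). Scarna8 had 0 and 17, Scarna3a 2 and 2, and Scarna3b 10 and 6. Whether the triplet itself matters was not tested. Scarna10, whose 35-nt fragment was read 146 times in oxidised and 128 times in untreated wild type RNA, had a 5′-end ratio of 0.844 (0.671 to 1.06), so a difference was not detectable at this depth. Its fragment, at chr6:125186649-125186683 on the minus strand, holds the letters TGATGA as that of Scarna9 does, and both are set side by side because they differed in their response.
Scarna10 fragment: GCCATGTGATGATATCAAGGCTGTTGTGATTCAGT
Scarna9 fragment: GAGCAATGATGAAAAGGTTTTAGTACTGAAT

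**Figure D3:**
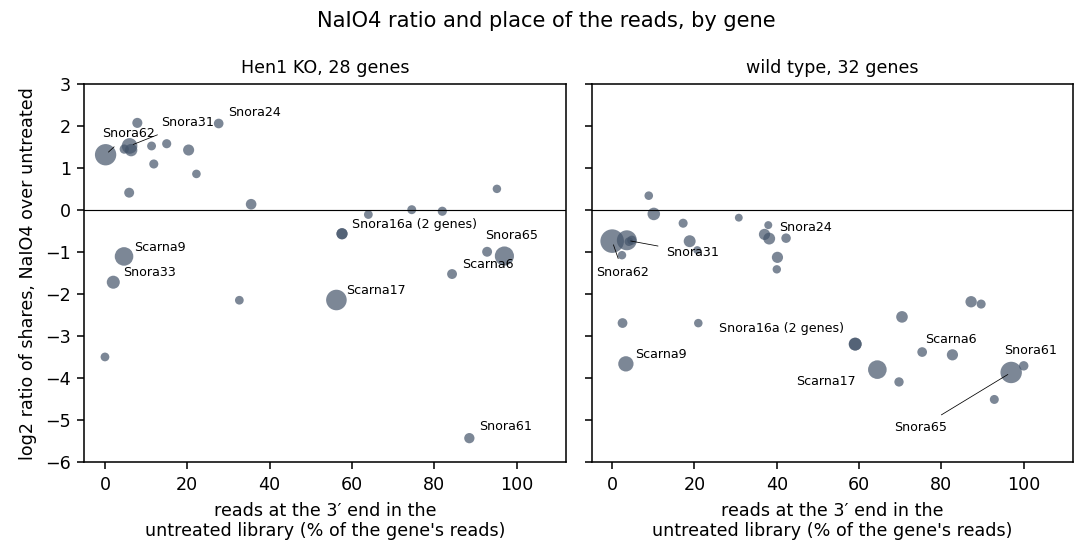
Log2 ratio of shares, NaIO4 over untreated, against the percentage of a gene's untreated reads that were at the 3′ end, for genes with at least 50 reads in the 2 libraries together (28 in the Hen1 knockout, left, and 32 in wild type, right). Point area grows with the untreated read count. Genes with mostly 3′-end reads lie low in wild type, and Scarna9, Scarna3b and Snora36b lie low with few of them. In the Hen1 knockout Snora62, Snora31 and Snora24 lie above 0, whereas Scarna9, Snora33 and Scarna3a, which also have few 3′-end reads, lie below it. Scarna3a, Scarna3b and Snora36b overlap annotated microRNA genes.

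Counted as whole genes, 18 of the 32 members with at least 50 reads in the 2 libraries together were 2-fold or more lower in oxidised wild type RNA, where 54.8% of all small RNA genes passed the same rule, and 0 were 2-fold or more higher, against 6.62%. The median ratio was 0.419 for members and 0.296 for all genes tested. Among the 12 members with at least 200 reads together, the highest ratios were those of Scarna10 (0.944, 0.777 to 1.15), Snora75 (0.673, 0.524 to 0.864) and Snora24 (0.628, 0.498 to 0.792). The lowest were those of Snora65 (0.0684, 0.0528 to 0.0886), Scarna17 (0.0715, 0.0531 to 0.0962) and Scarna9 (0.0783, 0.0547 to 0.112). MicroRNA reads, whose 3′ ends carry free hydroxyl groups, were at 0.0767 of their untreated share and Snord reads at 0.324. Measured per microRNA read, member fragments were therefore 4.72 times as frequent in oxidised as in untreated wild type RNA, and the count of members turned to 22 higher and 0 lower. The median ratio on that scale was 5.47 for members and 3.86 for all genes tested, so genes at large shifted as well. The share of all genes past 2-fold was not counted on it.

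In the Hen1 knockout the share of 3′-end reads was again lower after oxidation, but that of the 5′-end reads was higher. The 3′-end reads were 3.35-fold lower in oxidised than in untreated Hen1 knockout RNA (2.77 to 4.05), the 5′-end reads were at a ratio of 1.96 (1.82 to 2.12) and the internal reads at 1.80 (1.59 to 2.03). The 5′-end ratio was 2.71 (2.48 to 2.97) in the 44 genes with the ACA triplet and 0.875 (0.744 to 1.03) in the 7 genes without it, where a difference was not detectable at this depth. The 3′-end reads were 2.62-fold lower (2.13 to 3.22) in the 44 genes and 8.50-fold lower in the 7. All member reads together had a ratio of 1.34 (1.27 to 1.42). There were 0.118 3′-end reads per 5′-end read in oxidised Hen1 knockout RNA, against 0.771 in untreated Hen1 knockout RNA, which is 6.57-fold lower (5.35 to 8.06). The corresponding number was 6.67-fold (6.11 to 7.29) in Snord genes and 6.57-fold (5.41 to 7.99) in snRNA genes.

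Snora62, Snora31 and Scarna10 all had a larger share after oxidation in the Hen1 knockout. Snora62 had 139 RPM in oxidised and 55.6 RPM in untreated Hen1 knockout RNA, a ratio of 2.51 (2.20 to 2.85). Snora31 had a ratio of 2.90 (2.43 to 3.45) and Scarna10 one of 2.70 (2.12 to 3.44), and these were the highest of the 7 members with at least 200 reads together. The lowest were Scarna17 (0.224, 0.155 to 0.324), Snora33 (0.295, 0.168 to 0.517) and Scarna9 (0.463, 0.345 to 0.622). At the 5′ end 10 of 14 members with at least 20 such reads were 2-fold or more higher, against 20.3% of all small RNA genes, and 2 were lower, against 35%. At the 3′ end 11 of 18 were lower, against 67.8%, and 1 was higher, against 2.1%. Of 20 members with enough internal reads 9 were higher, against 21.7%, and 4 lower, against 39%. As whole genes, 10 of 28 members were 2-fold or more higher, against a background of 17.5%, and 8 were lower, against 43.9%, with a median ratio of 1.06 for members and 0.597 for all genes.

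The ratio of oxidised to untreated shares was 3.70 times larger in the Hen1 knockout than in wild type for all member reads (3.44 to 3.99), with 1 library in each of the 4 groups. Per microRNA read the order turned round, with a factor of 0.812. The factor was 3.58 for Snord reads and 4.56 for microRNA reads. In snRNA genes it was 5.35 for 3′-end reads, but 1.72 (1.68 to 1.76) for internal reads and 1.11 (0.986 to 1.25) for 5′-end reads. The oxidised Hen1 knockout library was the smallest of the 6.

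**Figure D4:**
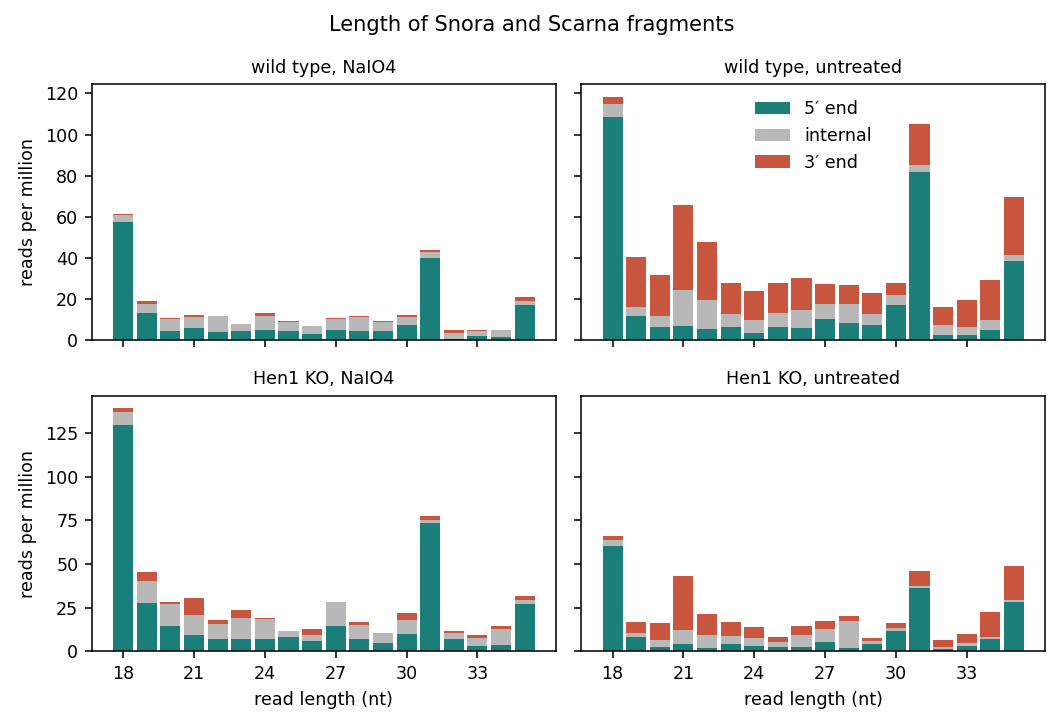
Member reads in RPM by read length and by place in the gene, in oxidised (left) and untreated (right) RNA of wild type (top) and Hen1 knockout (bottom) cells. The peaks at 18 and 31 nt are 5′-end reads and are present in all 4 panels, and the 3′-end reads with a peak at 21 nt in untreated wild type RNA are nearly gone in oxidised wild type RNA.

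Lengths differed by place. The most common length of 5′-end reads was 18 nt in all 6 libraries, and 3′-end reads peaked at 21 nt in untreated wild type RNA and in both Hen1 knockout libraries. The 3′-end peak was at 35 nt, the window limit, in oxidised wild type and Mili knockout RNA, and at 19 nt in the immunoprecipitate. Single genes weighed heavily in these peaks. In untreated wild type RNA Snora62 gave 806 of the 2443 5′-end reads, and 95.2% of these stopped at the same base. The Snora31 fragment gave 455 of 769 member reads of 31 nt. A single Snora65 sequence gave 238 of 482 member reads of 21 nt. Reads of 20 to 24 nt, the size of microRNAs, were 39.6% of the 3′-end reads of untreated wild type RNA and 8.60% of its 5′-end reads. Over all member reads this size held 26.0% (24.8 to 27.2), against 39.4% of the whole library.

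Without oxidation, the Hen1 knockout had fewer member reads than wild type and the Mili knockout more. The Hen1 knockout share was 0.542 of the wild type share (0.521 to 0.563), and 3′-end, internal and 5′-end reads were at 0.483, 0.621 and 0.565. Of 37 members with at least 50 reads together, 17 were 2-fold or more lower (background 43.1%) and 1 higher (background 1.83%), and the median ratio was 0.521, against 0.556 over all small RNA genes. Snora24 (0.313, 0.237 to 0.412), Snora31 (0.355, 0.309 to 0.407) and Snora68 (0.362, 0.279 to 0.469) were the lowest of the 14 members with at least 200 reads together. Scarna9 (0.991, 0.857 to 1.15) and Scarna17 (0.787, 0.698 to 0.887) were close to or nearer wild type. Per microRNA read the order turned round: members were 1.42 times as frequent in the Hen1 knockout as in wild type, since microRNAs were at 0.383 of their wild type share.

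Snora33, which lies in the ribosomal protein gene Rps12, was the single member that was 2-fold or more higher in the Hen1 knockout. It had 198 reads in the Hen1 knockout, against 35 in untreated wild type RNA, a ratio of 3.54 (2.47 to 5.07). One internal sequence of 28 nt accounted for most of them, at bases 49 to 76 of the gene, chr10:23785400-23785427 on the minus strand, and is shown in capitals within the gene.
Snora33: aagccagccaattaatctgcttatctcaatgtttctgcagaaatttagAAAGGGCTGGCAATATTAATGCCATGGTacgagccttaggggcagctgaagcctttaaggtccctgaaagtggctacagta
It was read 3 times in oxidised wild type RNA, 5 times in oxidised Hen1 knockout RNA, 154 times in the Hen1 knockout, 49 times in the Mili knockout, 0 times in the immunoprecipitate and 16 times in untreated wild type RNA. As a share, it was at 6.02 times the wild type value in the Hen1 knockout (3.60 to 10.1) and at 4.66 times in the Mili knockout (2.65 to 8.20). After oxidation its share was 6.85-fold lower in Hen1 knockout RNA (2.81 to 16.7). It was 7.49-fold lower in wild type RNA (2.18 to 25.7), so the lower share was not particular to the Hen1 knockout.

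In the Mili knockout the member share was 1.74 times that of wild type (1.68 to 1.81). All of the places shared in it, with ratios of 1.82 at the 3′ end, 1.94 for internal reads and 1.61 at the 5′ end. The 5′-end ratio was 1.37 (1.28 to 1.47) in the 44 genes with the ACA triplet and 2.23 (2.02 to 2.46) in the 7 without it. Of 39 members with at least 50 reads together, 16 were 2-fold or more higher (background 29.4%) and 0 lower (background 12.2%), with a median ratio of 1.81, against 1.69 over all small RNA genes. Among the 17 members with at least 200 reads together the highest ratios were Snora61 (2.91, 2.18 to 3.90), Scarna6 (2.84, 2.29 to 3.53) and Scarna17 (2.65, 2.37 to 2.96). The lowest were Snora65 (1.12, 0.993 to 1.26), Snora31 (1.19, 1.05 to 1.35) and Snora20 (1.21, 0.940 to 1.57), and the intervals of Snora65 and Snora20 include 1. Scarna genes together had a ratio of 2.38 (2.22 to 2.55) and Snora genes 1.54 (1.48 to 1.61). MicroRNA reads had a ratio of 1.77, so members per microRNA read were at 0.984 of wild type (0.949 to 1.02), and no member passed 2-fold on that scale. The median ratio there was 1.02 for members and 0.951 for all genes tested.

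The MILI immunoprecipitate held few member reads. Their share was 46.8-fold lower than in untreated wild type RNA (42.3 to 51.7), and 5′-end reads were 159-fold lower (121 to 209), 3′-end reads 92.6-fold (74.3 to 115) and internal reads 11.4-fold (9.94 to 13.0). Of 29 members with at least 50 reads together, 28 were 2-fold or more lower, against 69.5% of small RNA genes, and 0 were higher, against 6.23%. The median ratio was 0.0131 for members and 0.176 for all genes. Only 5 members had 200 reads together: Snora65 (0.0119, 0.00813 to 0.0175), Scarna9 (0.00774, 0.00383 to 0.0156), Snora62 (0.00322, 0.00167 to 0.00622), Snora31 (0.00207, 0.000774 to 0.00553) and Scarna17 (0.00182, 0.000585 to 0.00567). Snord reads were 60.8-fold lower and microRNA reads 22.6-fold lower in the immunoprecipitate, so per microRNA read the members were at 0.484 of wild type, with 6 members higher and 19 lower. The median ratio on that scale was 0.297 for members and 3.99 for all genes tested. The share of all genes past 2-fold was not counted on it.

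The reads that remained in the immunoprecipitate had another make-up. Internal reads were 67.0% of member reads in the immunoprecipitate, against 16.3% in untreated wild type RNA. Of Snord reads, 2530 of 3745 were internal in the immunoprecipitate, against 14697 of 66078 in untreated wild type RNA. The larger internal share was therefore not particular to the members. The most common length of member reads in the immunoprecipitate was 28 nt, and 52.8% (47.8 to 57.7) were 25 to 31 nt long, the size range of piRNAs. That size held 75.2% of the whole library. Of the member reads of that size 26.9% (21.1 to 33.3) in the immunoprecipitate, against 22.0% in untreated wild type RNA, began with T, the base that begins most primary piRNAs. Snora41 and Snora30 had the most of these reads, and these 2 genes were chosen after their values were seen. Snora41 had 49 internal reads in the immunoprecipitate, against 6 in untreated wild type RNA, and Snora30 had 48, against 8. These are counts, and the immunoprecipitate library was the larger, with 25240941 reads against 7322408. For Snora30 the share over the whole gene was at a ratio of 1.39 (0.704 to 2.75), so a difference was not detectable, and the ratio of Snora41 was 0.300 (0.209 to 0.430). Most internal Snora41 reads also matched another annotated small RNA gene, and 1 of 49 had Snora41 as its only source; all 48 of Snora30 had 1 source. Of the reads of 25 to 31 nt in the immunoprecipitate, 1 of 40 from inside Snora41 and 1 of 43 from inside Snora30 began with T. The most common read of each began at base 67, past the middle of the gene, at chr1:63179070-63179097 and chr7:127527940-127527969, both on the plus strand.
Snora41: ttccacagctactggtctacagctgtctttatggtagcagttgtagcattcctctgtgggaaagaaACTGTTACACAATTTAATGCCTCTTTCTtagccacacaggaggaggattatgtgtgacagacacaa
Snora30: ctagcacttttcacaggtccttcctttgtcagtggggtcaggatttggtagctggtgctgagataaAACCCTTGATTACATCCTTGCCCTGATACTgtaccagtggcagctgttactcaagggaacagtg
The Snora41 sequence was read 13 times in the immunoprecipitate and the Snora30 sequence 12 times, against 0 and 4 times in untreated wild type RNA. As a share, the Snora30 sequence was at a ratio of 0.870 (0.281 to 2.70), so a difference was not detectable. The share of the Snora41 sequence was at least 1.26-fold higher when 3 counts are taken as the floor.

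Some members overlap annotated microRNAs. Scarna3b holds miR-1843a-5p, Scarna3a holds miR-1843b-5p, Snora36b holds both arms of miR-664, Snora19 both arms of miR-3084 and Snora34 miR-1291. The mature sequences from RefSeq (GRCm38.p6), with the seed (bases 2 to 8) in capitals, show that the Scarna3b and Scarna3a microRNAs have seeds shifted by 1 base within the same run of letters.
miR-1843a-5p: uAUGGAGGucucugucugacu
miR-1843b-5p: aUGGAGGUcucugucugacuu
miR-664-5p: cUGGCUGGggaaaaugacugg
miR-1291: aUGGCUCUuacugaagacuagcaguu
The exact miR-1843a-5p sequence was read 3 times in oxidised wild type RNA, 3 times in oxidised Hen1 knockout RNA, 15 times in the Hen1 knockout, 22 times in the Mili knockout, 0 times in the immunoprecipitate and 32 times in untreated wild type RNA. Reads shared by Snora36b and the Mir664 gene numbered 9 in oxidised and 42 in untreated wild type RNA. Those shared by Snora34 and Mir1291 numbered 43 and 33. These are counts, and the oxidised library was the larger, with 10282416 reads against 7322408. As a share, the 5′-end reads of Snora34 were at a ratio of 1.22 (0.735 to 2.01), so a difference was not detectable. The 5′ end of Snora34 is also the 5′ end of miR-1291, and reads within 2 nt of both ends of the mature sequence numbered 12 in oxidised and 6 in untreated wild type RNA.

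Reads whose last bases did not match the gene at inner ends took the largest share in the immunoprecipitate. Of reads that stopped inside the gene, 0.606% (0.353 to 0.969) in oxidised wild type RNA, 0.145% (0.0176 to 0.524) in oxidised Hen1 knockout RNA, 1.71% (1.32 to 2.18) in the Hen1 knockout, 2.42% (2.00 to 2.89) in the Mili knockout, 9.64% (6.88 to 13.0) in the immunoprecipitate and 1.60% (1.23 to 2.04) in untreated wild type RNA had a tail of 1 to 3 bases that did not match. In the immunoprecipitate 29 of the 37 tails were made of T. The shares were lower in both oxidised libraries than in their untreated partners. These reads did not match a member exactly and are not counted in any other value. Any mismatch in the last 1 to 3 bases counts as a tail here, and whether the bases were added to the RNA was not tested.

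Other RNAs of the pathway were read from a fixed list. Terc, the telomerase RNA, which ends in an H/ACA domain, had 5.54 RPM in oxidised wild type RNA, 8.45 RPM in oxidised Hen1 knockout RNA, 47.1 RPM in the Hen1 knockout, 65.5 RPM in the Mili knockout, 4.58 RPM in the immunoprecipitate and 44.0 RPM in untreated wild type RNA. Its share was 7.93-fold lower (5.99 to 10.5) in oxidised than in untreated wild type RNA. Reads from the transcripts of 9 genes of the H/ACA particle and its assembly (Dkc1, Nop10, Nhp2, Gar1, Naf1, Shq1, Nolc1, Wrap53 and Coil) summed to 335 RPM in oxidised wild type RNA, 230 RPM in oxidised Hen1 knockout RNA, 310 RPM in the Hen1 knockout, 44.1 RPM in the Mili knockout, 433 RPM in the immunoprecipitate and 359 RPM in untreated wild type RNA. These are small RNA reads of the messenger RNAs and not their expression. Their sum was 8.15-fold lower (7.09 to 9.38) in the Mili knockout than in wild type and at a ratio of 1.20 (1.15 to 1.26) in the immunoprecipitate. Nolc1 gave 1420 of the 2632 reads in untreated wild type RNA, and its ratio in the immunoprecipitate was 0.319 (0.297 to 0.343). That of Coil was 0.766 (0.522 to 1.12), and the other 7 genes had ratios of 1.87 to 5.64. In the Mili knockout Gar1 was at 1.19 (0.589 to 2.38) and the other 8 genes at 0.0174 to 0.435. Dkc1, the pseudouridine synthase, had 21.6 RPM in the Mili knockout and 149 RPM in the immunoprecipitate, against 79.6 RPM in untreated wild type RNA.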

How the data were processed

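The deposited files held raw read counts per distinct sequence, 1 file per library, without normalization; identical reads had been collapsed by the authors, as the values show. Bowtie and mm10 are named in the submitters' processing notes, without version or role. Adapter trimming is not given in the sources used here. A spike-in mixture was added before NaIO4, per the labels' protocols, and was not used here.

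Reads of 18 to 35 nt were matched exactly and in sense to GENCODE M21 transcripts of GRCm38 with Python 3.11.15, numpy 2.4.6, pandas 2.3.3 and scipy 1.17.1. A read matching several small RNA genes was split equally over the members it matched, and over all genes in the background. Between 57.0 and 81.0% of member reads per library had 1 source gene, and 9 to 54 also matched a long transcript elsewhere. Introns and unannotated regions were not searched. The sequence of 1 leading gene is not reported here. Shares are per reads of 18 to 35 nt. The microRNA reads used as the other scale matched genes of biotype miRNA, with Mir5099 left out. Ratios have 95% intervals on the log scale, and shares have exact (Clopper-Pearson) ones. Reads carry no molecular identifiers, so intervals cover counting error only. Counts of genes used a pseudocount of 0.5, at least 50 reads in both libraries together (20 by place) and a 2-fold rule. The overlapping Snora16a genes were counted separately although they share their reads and have the same values. A share of 0 was bounded with 3 counts. The ratio code was tested on simulated data.

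The named genes were the 12 members with the highest mean level, the 3 highest and 3 lowest ratios per comparison among members with at least 200 reads, and the listed pathway genes. Members and lists were chosen with earlier results of these data known. Alternatives were another scaling, other end windows and other member sets.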

Additional observations from a re-analysis of the deposited data

Results flagged for a closer look

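The effect of NaIO4 pointed in opposite directions in wild type and Hen1 knockout RNA for several sets. With 1 library per group these differences were not tested. All members together were at 1.34 of the untreated share in the Hen1 knockout and at 0.362 in wild type. The 5′-end reads were at 1.96 in the Hen1 knockout and 0.548 in wild type, the internal reads at 1.80 and 0.639, and the Snora genes alone at 1.67 and 0.415. Abundant genes that did the same were Snora24 with 4.20 in the Hen1 knockout and 0.628 in wild type, Snora31 with 2.90 and 0.611, Snora62 with 2.51 and 0.602, Snora68 with 4.24 and 0.601, and Snora75 with 2.70 and 0.673. Values below 1 mean a lower share after oxidation. The opposite directions hold for shares of all reads. Per microRNA read every one of these sets was above 1 in both genotypes, with 3.83 in the Hen1 knockout and 4.72 in wild type for all members, 5.60 and 7.14 at the 5′ end, 5.14 and 8.33 for internal reads, and 4.77 and 5.40 for the Snora genes.

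A pair of signals lay just outside the length or match rule. The first was a 36-nt fragment of Snora44, bases 1 to 36, at chr4:132309941-132309976 on the plus strand, 1 base longer than the window. It was read 3346 times in oxidised wild type RNA, 1580 times in oxidised Hen1 knockout RNA, 2452 times in the Hen1 knockout, 2682 times in the Mili knockout, 5 times in the immunoprecipitate and 3127 times in untreated wild type RNA. Its ratio of oxidised to untreated share was 0.762 (0.726 to 0.800) in wild type and 2.90 (2.72 to 3.08) in the Hen1 knockout.
Snora44: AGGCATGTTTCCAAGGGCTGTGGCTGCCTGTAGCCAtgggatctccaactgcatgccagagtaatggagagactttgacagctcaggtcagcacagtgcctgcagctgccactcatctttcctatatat
The other was a set of reads of the 3′ end of Scarna6 that carried a T past the annotated last base. They numbered 25 in oxidised wild type RNA, 27 in oxidised Hen1 knockout RNA, 725 in the Hen1 knockout, 1047 in the Mili knockout, 15 in the immunoprecipitate and 982 in untreated wild type RNA. They were 55.2-fold lower (37.1 to 82.0) in oxidised than in untreated wild type RNA. The most common one is shown with the extra base in capitals, and whether that base stands in the genome was not tested.
Scarna6 3′ end with T: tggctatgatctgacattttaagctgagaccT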

How the results depend on the processing

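No paired analysis was possible because each group had 1 library. Alternatives using the ACA triplet, the wider lengths and the 3′-end reads per 5′-end read were chosen after seeing the data. The share ratios below are given in the order oxidised over untreated wild type (0.362), oxidised over untreated Hen1 knockout (1.34), Hen1 knockout over wild type (0.542), Mili knockout over wild type (1.74), immunoprecipitate over wild type (0.0214) and the factor between the first pair (3.70). Per microRNA read they were 4.72, 3.83, 1.42, 0.984, 0.484 and 0.812. Counting each distinct sequence once gave 0.393, 3.41, 0.401, 5.22, 0.0420 and 8.66. With the ACA genes only they were 0.400, 1.62, 0.482, 1.56, 0.0253 and 4.05. Snora symbols alone gave 0.415, 1.67, 0.490 and 1.54 for the first 4, and 4.03 for the factor. Without Snora62 the ratios of oxidised wild type, oxidised Hen1 knockout, Mili knockout and immunoprecipitate were 0.321, 1.16, 1.82 and 0.0245, and with reads of 17 and 36 to 41 nt they were 0.501, 1.73, 1.57 and 0.0145. Leaving out the 10 most abundant sequences of each library gave 2.03 for the oxidised Hen1 knockout, 2.04 for the Mili knockout, 0.0189 for the immunoprecipitate and 5.80 for the factor. Reads with 1 source gene gave 0.0158 for the immunoprecipitate.

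Per microRNA read, members 2-fold higher and lower were 22 and 0 for oxidised wild type and 17 and 2 for oxidised Hen1 knockout. They were 8 and 2 for Hen1 knockout over wild type, with 6 higher for the immunoprecipitate and 0 higher in the Mili knockout. The share of all genes past 2-fold was not counted per microRNA read. Median ratios of members on that scale were 5.47, 3.03, 1.36, 1.02 and 0.297 in the order of the comparisons. Those of all small RNA genes tested were 3.86, 1.7, 1.45, 0.951 and 3.99. That scaling shifted every log2 ratio by 3.70, 1.51, 1.39, -0.83 and 4.50 in the order of the comparisons. With 1 source gene, 10 members were lower in the Hen1 knockout and 18 in the immunoprecipitate. The share over all small RNA genes was not counted under this restriction, so these counts have no background beside them. The share at the 3′ end in untreated wild type RNA was 37.5% with an end window of 2 nt, 41.2% with 1 source gene and 46.5% without Snora62. The share of 20 to 24 nt was 22.6% with 1 source gene, 30.1% without Snora62 and 32.3% with the ACA genes only. The ratio of 3′-end reads per 5′-end read after oxidation (wild type 0.0779, Hen1 knockout 0.152) was 0.0495 and 0.111 with the window of 2 nt, and 0.0638 for wild type with 1 source gene; it stayed below 1 under every alternative run. The cause of these shifts was not tested. The immunoprecipitate had the fewest member reads, 409, through their low share, and the oxidised Hen1 knockout was the shallowest library, with 2604390 reads.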
